A study of Mus musculus with 4 samples.

Results

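The 9 genes described here encode the proteins with which astrocytes clear glutamate and GABA, buffer potassium, move water and bicarbonate, and couple to one another. They are Slc1a2, Slc1a3, Glul, Slc6a11, Kcnj10, Slc4a4, Aqp4, Gja1 and Gjb6. They were taken by gene symbol from the 55403 features of the count matrices, and all 9 were measured in astrocytes of every library. RNA was sequenced from single nuclei captured in droplets, and each captured transcript carries a unique molecular identifier (UMI). The tissue was frozen mouse hippocampus, pooled before nuclei were extracted.

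The study asked how raised SORLA, a sorting receptor, bears on tau pathology in aged mice. WT mice were littermates. PS19 mice carry the 1N4R form of human tau with the P301S mutation, driven by the prion protein (Prnp) promoter, on a B6;C3 background. TG_PS19 mice carry that tau transgene together with a SORLA transgene in the Rosa26 locus, driven by a CMV/β-actin promoter element and therefore not restricted to astrocytes. There was 1 WT library, 2 PS19 libraries and 1 TG_PS19 library. The ages, the sexes, the number of animals per pool and the source of each PS19 library (1 pool or separate ones) are not given in the sources used here.

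Astrocytes take up glutamate from the synaptic cleft through the sodium-coupled transporters EAAT2 (Slc1a2, also GLT-1) and EAAT1 (Slc1a3, also GLAST), and glutamine synthetase (Glul) turns it into glutamine. The inward rectifier Kir4.1 (Kcnj10) carries potassium away from active neurons, and the water channel aquaporin-4 (Aqp4) is concentrated in the endfeet that wrap blood vessels. The connexins Cx43 (Gja1) and Cx30 (Gjb6) form gap junctions that join astrocytes into a network, GAT-3 (Slc6a11) takes up GABA, and NBCe1 (Slc4a4) carries sodium and bicarbonate. GFAP (Gfap), an intermediate filament protein, is widely used as a marker of reactive astrocytes.

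The 4 libraries held 4643 to 12762 barcodes at a median of 2643 to 3708.5 UMIs, and 29616 nuclei were kept. Pairs of libraries shared 5 to 32 barcode sequences, at most 0.474% of the smaller library. Clustering, done without the 9 genes and Gfap, gave 4 clusters named astrocyte-like from 12 other markers, of which 10 to 12 were raised in each. They held 2763 WT nuclei, 619 and 697 nuclei of PS19 replicates 1 and 2, and 1643 TG_PS19 nuclei. Y-linked UMIs without Xist were found in 74.6% of WT astrocytes and in 80.6% and 81.6% of PS19 astrocytes. In TG_PS19 they were found in 28.8%, and 53.3% carried Xist UMIs without Y-linked ones, so that this pool held both sexes and the genotype cannot be told apart from that mixture. Because WT and TG_PS19 were sampled once each, p-values between genotypes rest on the spread of the PS19 pair, which may be technical.

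The 9 genes differed in how far they were restricted to astrocytes. Levels are given here as the UMIs of a gene scaled to a total of 1000000 UMIs of a cell class in a library (counts per 1000000, CPM), and they are compared between classes and not between genes. Slc1a2 reached 6867 to 8220 CPM in astrocytes over the 4 libraries. Among the 10 other classes with at least 50 nuclei in every library, its highest level was 522.0, in mural cells of PS19 replicate 1. Slc6a11 stood at 233 to 347 in astrocytes and at no more than 26.8 in any of those classes. Aqp4 stood at 253 to 496 in astrocytes and at 24.5 to 61.5 in oligodendrocyte precursors. These 3 genes therefore showed no overlap between astrocytes and any of those classes.

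Kcnj10, Glul, Slc1a3 and Slc4a4 did not overlap with the further classes named next either, but reached a sizeable part of their astrocyte level there. Kcnj10 was at 141 to 172 CPM in astrocytes and at 96.4 to 127 in oligodendrocytes, which also use Kir4.1. Glul was at 606 to 681 in astrocytes, 319 to 476 in fibroblasts and 195 to 359 in oligodendrocytes. Slc1a3 was at 2582 to 2903 in astrocytes and at 1264 to 1435 in fibroblasts, while Slc4a4 was at 1818 to 1882 in astrocytes and at 598 to 765 in dentate granule neurons. Gjb6 was the exception to the order. Its level in fibroblast-like nuclei was 253 in WT, 221 and 228 in PS19 and 239 in TG_PS19, above the astrocyte level of the same library in all 4 (129, 147, 133 and 161). Gja1, the other connexin, was at 192 to 304 in fibroblasts and 505 to 637 in astrocytes, without overlap.

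In astrocytes of PS19 mice, Aqp4 was higher and Slc6a11 was lower than in WT, and the other 7 genes did not pass the test. For these comparisons counts were normalised by trimmed-mean scaling (TMM, which gives the normalised CPM below), and edgeR's quasi-likelihood test was run over 16530 genes with Benjamini-Hochberg adjustment at 0.05. The background share of genes called was 5.96%, against 2 of the 9 members. The median log2 change of the 9 was 0.05, beside 0.01 over all genes tested. For comparison, Gfap stood at 120 normalised CPM in WT, 558 and 539 in PS19 and 109 in TG_PS19.

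**Figure D1:**
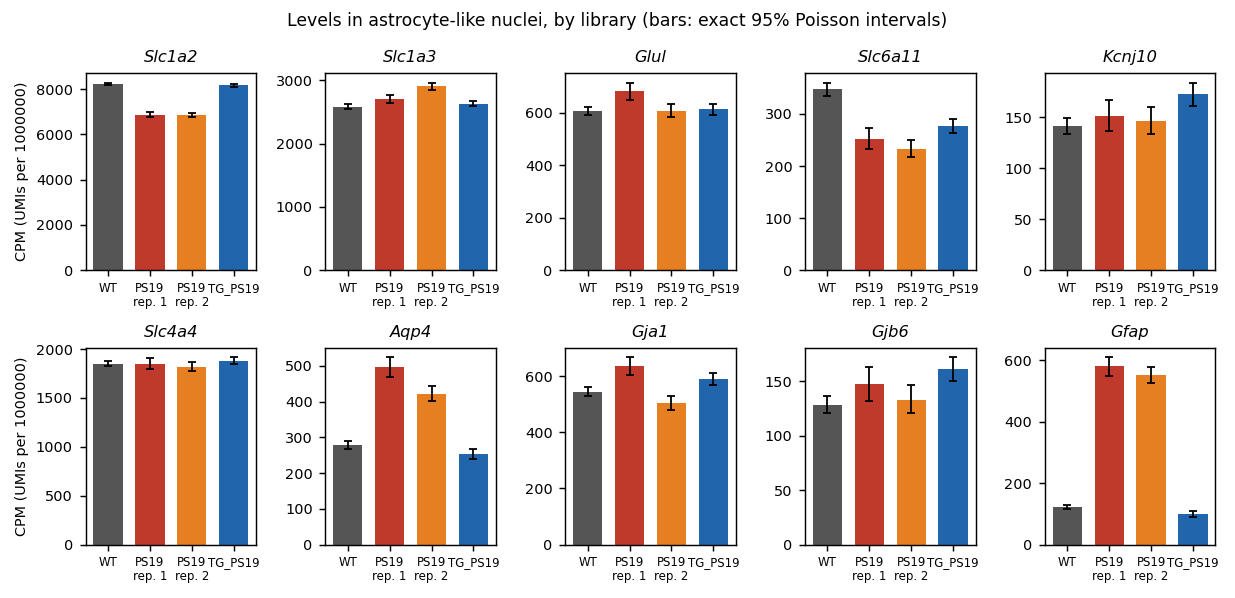
CPM (vertical axes, linear from 0) of the 9 genes and Gfap in astrocyte-like nuclei of each library, with exact 95% Poisson intervals that cover counting error only. Aqp4 and Gfap are high in both PS19 libraries, Slc6a11 is highest in WT, and Slc4a4 lies between 1818 and 1882 in all 4 libraries.

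Aqp4 stood at 275 normalised CPM in the WT library, at 477 and 412 in PS19 replicates 1 and 2 (mean 445 ± 46.3, SD, n = 2), and at 278 in TG_PS19. Both PS19 libraries lay above the others. The log2 change of PS19 against WT was 0.69 with a standard error of 0.13 (adjusted p = 1.69e-05, edgeR). Slc6a11 stood at 344 in WT, at 243 and 228 in PS19 (mean 236 ± 10.8, SD, n = 2), and at 304 in TG_PS19. Both PS19 libraries were below the WT and TG_PS19 libraries, and the log2 change against WT was -0.55 with a standard error of 0.13 (adjusted p = 0.00101, edgeR). DESeq2 did not call it, with the same size of change (-0.54, adjusted p = 0.293), nor did edgeR on nuclei thinned to 1000 UMIs (-0.47, adjusted p = 0.126).

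Of the glutamate genes, Slc1a2 stood at 8129 normalised CPM in WT, at 6612 and 6705 in PS19 and at 8963 in TG_PS19. The PS19 libraries were again the lowest, but the log2 change of -0.29 against WT did not pass (adjusted p = 0.212, edgeR). Without the low-count filter it passed (-0.32, adjusted p = 0.0262, edgeR). Slc1a3 stood at 2554, 2598, 2834 and 2889 in WT, PS19 replicates 1 and 2 and TG_PS19, and Glul at 599.6, 655.5, 593.6 and 673.5. Neither gene separated the genotypes, with log2 changes of 0.09 and 0.06 against WT. For Kcnj10, Slc4a4, Gja1 and Gjb6 the log2 changes lay between -0.04 and 0.09, at adjusted p-values of 0.850 to 0.953.

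In astrocytes of TG_PS19 mice, Aqp4 was lower and Slc1a2 and Kcnj10 were higher than in PS19. Against PS19, the log2 change of TG_PS19 was -0.67 for Aqp4 (SE 0.14, adjusted p = 2.79e-05, edgeR). It was 0.43 for Slc1a2 (SE 0.13, adjusted p = 0.0118, edgeR) and 0.39 for Kcnj10 (SE 0.14, adjusted p = 0.0457, edgeR). Kcnj10 stood at 189 normalised CPM in TG_PS19 and at 145 and 143 in PS19, with 140 in WT. Thus 3 of the 9 were called, beside 9.33% of all genes. The median log2 change of the 9 was 0.23, beside -0.01 over all genes.

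Both connexins and Slc6a11 fell short of the threshold in this comparison. Gjb6 was at 177 normalised CPM in TG_PS19, 142 and 130 in PS19 and 127 in WT, and its log2 change against PS19 was 0.39 (adjusted p = 0.0555, edgeR). Gja1 was at 648 in TG_PS19, 613 and 493 in PS19 and 539 in WT, so that one PS19 library lay near TG_PS19 and the other below WT. Slc6a11 differed by 0.37 from PS19 on the log2 scale (adjusted p = 0.0566, edgeR).

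The calls for Slc1a2 and Kcnj10 held under some settings and ended under others. Both held under relative log expression scaling, with clusters at resolution 2.0, with a robust prior and with the members among the variable genes. Slc1a2 also held without the low-count filter and with doublets kept. Scaling by library totals moved the median of all genes by -0.18 for TG_PS19 against PS19, and then Aqp4 alone was called (-0.85, adjusted p = 1.21e-09), while Slc1a2 was at 0.25 (adjusted p = 0.0766) and Kcnj10 at 0.21 (adjusted p = 0.321). Neither passed with DESeq2, at 0.43 for Slc1a2 (adjusted p = 0.0545) and 0.40 for Kcnj10 (adjusted p = 0.591). The same held on nuclei thinned to 1000 UMIs, at 0.35 for Slc1a2 (adjusted p = 0.0966) and 0.29 for Kcnj10 (adjusted p = 0.553). Kcnj10 also missed the threshold without the low-count filter (adjusted p = 0.0819) and with doublets kept (adjusted p = 0.125), and Slc1a2 with adjusted residual degrees of freedom (adjusted p = 0.0594). Over the 474 TG_PS19 astrocytes with Y-linked UMIs, Aqp4 was at -0.58 (adjusted p = 0.00229), Slc1a2 at 0.40 (adjusted p = 0.0560) and Kcnj10 at 0.13 (adjusted p = 0.754). Slc6a11 was called there as well, higher in TG_PS19. Over the 876 TG_PS19 astrocytes with Xist UMIs, Slc1a2 and Kcnj10 were called, as were Glul and Gjb6, all 4 higher, and Aqp4 was called lower.

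TG_PS19 and WT, the pair of libraries without replicates, were not separated at any of the 9 genes: 0 were called by edgeR, 2 had an unadjusted p under 0.05 (Kcnj10 and Gjb6) and DESeq2 called 0. The background was 2.37% of genes. The log2 changes of TG_PS19 against WT ran from -0.18 for Slc6a11 to 0.48 for Gjb6 (adjusted p = 0.0706, edgeR), with 0.01 for Aqp4. Scaling by library totals moved the median of all genes by -0.15 here, and Aqp4 then came to -0.14 and Slc1a2 to -0.01. The PS19 libraries enter both of the preceding comparisons, so the opposite signs of Aqp4, Slc6a11 and Slc1a2 in them are not independent of each other.

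**Figure D2:**
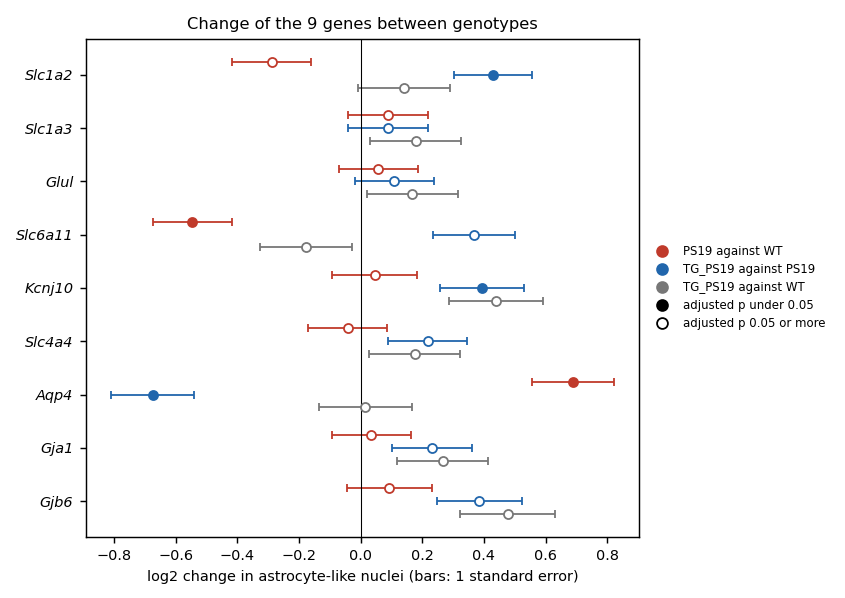
Log2 change (horizontal axis) of each gene in astrocyte-like nuclei for the 3 genotype comparisons, as points with 1 standard error; filled points passed an adjusted p of 0.05. Aqp4 and Slc6a11 are filled for PS19 against WT, and Aqp4, Slc1a2 and Kcnj10 for TG_PS19 against PS19.

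Other genes of the same functions were counted from a list of 40, of which 39 were tested. In PS19 against WT, 9 passed, 5 higher and 4 lower, beside 5.96% of all genes, and the median log2 change of the list was -0.11. Lrrc8a, a subunit of the volume-regulated anion channel, rose by 1.18. Slc38a1, a glutamine transporter, rose by 1.03, Grm5, a metabotropic glutamate receptor, by 0.76 and the chloride channel gene Clcn2 by 0.49. Aqp9, another aquaporin, fell by 0.88, the metabotropic receptor Grm3 by 0.53, the carbonic anhydrase gene Car2 by 0.49 and Slc7a10, a transporter of small neutral amino acids, by 0.47. The water channel genes thus moved in opposite directions, with Aqp9 at 47.8 normalised CPM in WT, 26.9 and 25.2 in PS19 and 45.7 in TG_PS19.

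In TG_PS19 against PS19, 11 of the 39 passed, 6 higher and 5 lower, beside 9.33% of all genes, with a median of 0.02. Grm3 rose by 1.14, Aqp9 by 0.82, Car2 by 0.51, the mitochondrial glutamate carrier Slc25a18 by 0.50, and the dystrophin complex genes Dmd and Dtna, which anchor endfoot proteins, by 0.49 and 0.36. Slc38a1 fell by 1.15, the lactate transporter gene Slc16a1 by 0.86, Mlc1, an endfoot membrane protein, by 0.78, and Grm5 and Lrrc8a by 0.69 each. Against WT, 1 gene of the list passed: Grm3 was higher in TG_PS19 by 0.61 (adjusted p = 0.00389, edgeR).

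Splitting astrocytes by Gfap showed that most of the 9 genes were lower where Gfap was detected, and Aqp4 was higher. At least 1 Gfap UMI was present in 22.5% of WT astrocytes, in 53.2% and 56.2% of PS19 astrocytes and in 20.998% of TG_PS19 astrocytes. After thinning each nucleus to 1000 UMIs the shares were 10.7%, 31.3%, 27.4% and 8.66%, with 11, 2, 1 and 15 shallower nuclei left out. In oligodendrocytes, which should lack the gene, a Gfap UMI was held by 0.371% of WT, 1.75% and 1.13% of PS19 and 0.401% of TG_PS19 nuclei. This share was thus also highest in the PS19 libraries. After thinning it was 0.158%, 0.774%, 0.378% and 0.348%. Median depths in oligodendrocytes were 1930 to 3024.5 UMIs, against 2897 to 4508 in astrocytes. A single UMI was all that 14.5% to 18.2% of astrocytes held, so the undetected nuclei include some that express Gfap. Median depth was higher in detected nuclei of every library, by 3009.5 against 2859 UMIs in WT and by up to 4860 against 4048 in PS19 replicate 2.

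With the library as a block, 6 of the 9 genes differed between Gfap-detected and Gfap-undetected astrocytes by edgeR, beside 7.87% of the 13050 genes tested. The median log2 difference of the 9 was -0.27, beside -0.01 over all genes. Aqp4 was higher by 1.12 (SE 0.10, adjusted p = 1.78e-07). Slc6a11 was lower (-0.60, adjusted p = 0.000642), as were Gjb6 (-0.57, adjusted p = 0.000723) and Kcnj10 (-0.46, adjusted p = 0.00131). Glul (-0.28, adjusted p = 0.0191) and Slc1a2 (-0.27, adjusted p = 0.0396) were lower by less. Gja1 (-0.24, adjusted p = 0.0530), Slc4a4 (-0.12, adjusted p = 0.395) and Slc1a3 (-0.08, adjusted p = 0.629) did not pass.

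The sum of the 12 astrocyte markers, which hold none of the 9 genes, was also lower in the Gfap-detected nuclei of each library. It stood at 12930 CPM in detected and 15089 in undetected nuclei of WT, at 8696 and 13996 in PS19 replicate 1, at 9903 and 15010 in PS19 replicate 2, and at 12885 and 15356 in TG_PS19. The gap was widest in the PS19 libraries, and its part in the members' differences was not tested.

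The values by library show which of these differences rest on PS19. Aqp4 stood at 446 CPM in Gfap-detected and 227 in Gfap-undetected nuclei of WT, at 699.9 and 238.6 in PS19 replicate 1, at 567 and 196 in PS19 replicate 2, and at 371.5 and 219.2 in TG_PS19. It was higher in the detected nuclei of all 4 libraries. Slc6a11 stood at 276 and 369 in WT, 191.9 and 329.5 in PS19 replicate 1, 175 and 325 in PS19 replicate 2, and 258 and 282 in TG_PS19. Slc1a2 stood at 7931 and 8309 in WT, 5946 and 8036 in PS19 replicate 1, 6213 and 7886 in PS19 replicate 2, and 8182 and 8156 in TG_PS19. For Slc1a2 the gap was wide in PS19 and small or absent elsewhere. Without WT, or without either PS19 library, Slc1a2 did not pass, and Glul did not pass without either PS19 library.

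**Figure D3:**
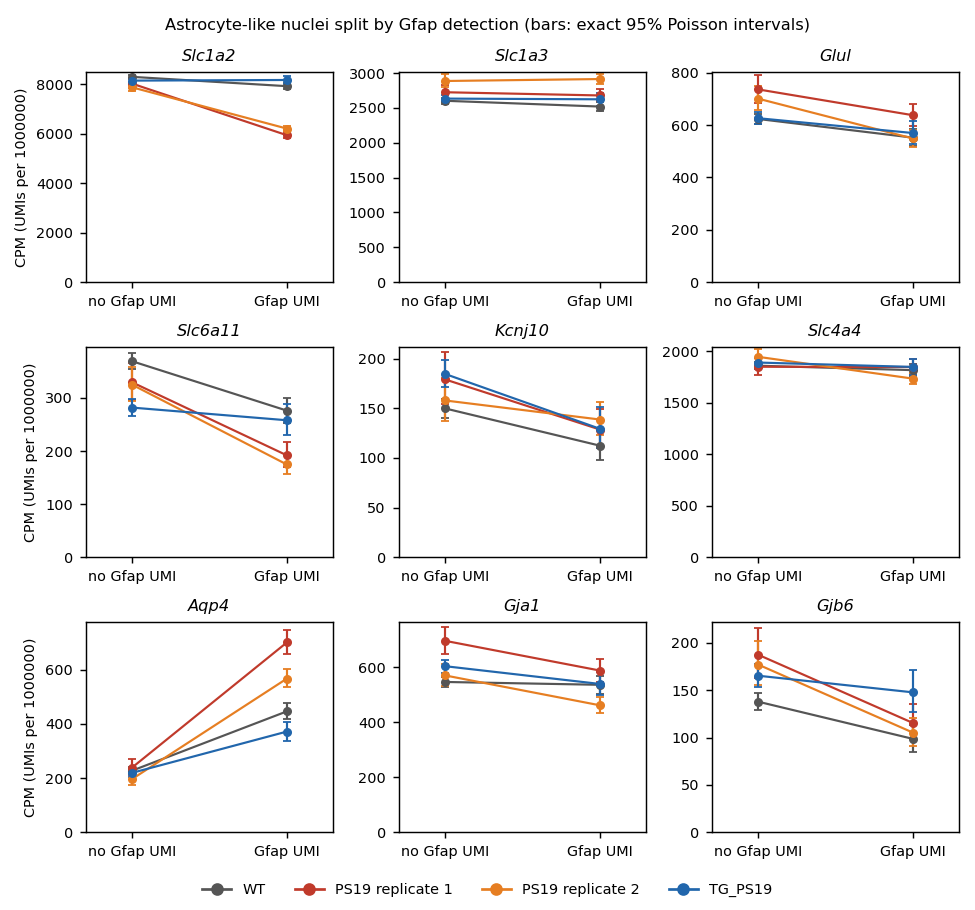
CPM (vertical axes, linear from 0) in astrocyte-like nuclei without and with a Gfap UMI, one line per library, with exact 95% Poisson intervals. Aqp4 is higher in Gfap-detected nuclei of all 4 libraries, and the lines of Slc1a2 and Slc6a11 are steepest in the PS19 libraries.

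The genotype change itself differed with Gfap detection for a few members, in strata not matched in Gfap level. In Gfap-detected nuclei Gfap stood at 518 CPM in WT, 1039 and 906 in PS19 replicates 1 and 2, and 442 in TG_PS19. The part of that level in the changes was not tested. In the Gfap-detected nuclei, PS19 against WT called Slc6a11 (-0.62, adjusted p = 0.00720, edgeR), 1 of 9 beside a background of 4.95%, while Aqp4 was at 0.47 (adjusted p = 0.0694). TG_PS19 against PS19 called 4 of 9 there, beside 6.63%: Slc6a11 (0.66), Slc1a2 (0.59), Gjb6 (0.59) and Aqp4 (-0.60), at adjusted p-values of 0.00514 to 0.0348. In the Gfap-undetected nuclei, 0 of 9 were called by edgeR for either comparison, beside 0.865% and 2.53% of genes, with 1 and 0 members at an unadjusted p under 0.05. There Aqp4 changed by -0.05 and 0.14, Slc1a2 by -0.04 and 0.16 and Slc6a11 by -0.15 and -0.09, none past the test.

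The interaction of genotype with Gfap status tested that difference directly, with 1 residual degree of freedom, which came from the PS19 pair. For PS19 against WT it passed for 2 members, beside 1.06% of genes: Slc1a2 (-0.38, adjusted p = 0.0223, edgeR) and Aqp4 (0.51, adjusted p = 0.0466, edgeR). For TG_PS19 against PS19 it passed for 3, beside 0.782%: Slc6a11 (0.76, adjusted p = 0.00741, edgeR), Slc1a2 (0.44, adjusted p = 0.00720, edgeR) and Aqp4 (-0.73, adjusted p = 0.00494, edgeR). With Gfap status and levels taken after thinning to 1000 UMIs, 0 members passed in either comparison. For PS19 against WT the differences were then -0.15 for Slc1a2 and 0.21 for Aqp4. They were 0.91 for Slc6a11, 0.24 for Slc1a2 and -0.42 for Aqp4 in TG_PS19 against PS19, so that Slc6a11 differed by more than before thinning and the other two genes by less.

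The 4 astrocyte-like clusters held the 9 genes at different levels, and their shares differed between libraries. The clusters come from the same nuclei, although the 9 genes and Gfap were kept out of the clustering, so levels between clusters are descriptions with no test. The largest cluster, led by Gm12239 and Gpc5, held 68.3% of WT astrocytes, 48.9% and 45.2% of PS19 astrocytes and 71.8% of TG_PS19 astrocytes. A cluster led by Thbs4 and Gfap held 20.3%, 31.3%, 36.6% and 19.96%, and one led by Myoc and Gfap held 5.47%, 15.7%, 13.3% and 3.47%. The remaining cluster, led by Adgrv1, held 4.04% to 6.01%.

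In the Myoc cluster, Aqp4 stood at 1249.9 CPM in WT, 1597 and 1408 in PS19 and 1144 in TG_PS19, and in the largest cluster at 198, 199, 195 and 187. Slc6a11 in the Myoc cluster stood at 137.5, 105.9, 82.5 and 155.4, against 385, 361, 354 and 298 in the largest cluster. Slc1a2, Gjb6 and Kcnj10 were also lowest or near lowest in the Myoc cluster, with Slc1a2 at 3416 to 3947, against 8018 to 8556 in the largest. Gja1 stood at 434 to 608 there and at 548 to 713 in the largest cluster, with overlapping ranges, and Slc4a4 at 1771 to 2007 against 2009 to 2077.

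Fitted alone, the largest cluster gave 0 members called in any of the 3 comparisons by edgeR, with Aqp4 at 0.03 for PS19 against WT (adjusted p = 0.989) and Slc6a11 at -0.07 (adjusted p = 0.970). The 9 changes for PS19 against WT ran there from -0.07 to 0.38 for Gjb6 (adjusted p = 0.429), with a median of 0.18, above that over all astrocytes. With the Myoc cluster left out and the others kept, Aqp4 was at 0.28 (adjusted p = 0.269) and Slc6a11 at -0.43 (adjusted p = 0.0183). The call of Aqp4 for TG_PS19 against PS19 ended there too (-0.16, adjusted p = 0.594), as did that of Kcnj10 (0.29, adjusted p = 0.212), while Slc1a2 passed (0.32, adjusted p = 0.0192). In the Thbs4 cluster, Slc6a11 stood at 290 in WT, 184 and 174 in PS19 and 242 in TG_PS19, and Slc1a2 at 8908, 6603 and 7034 and 8999.8. In PS19 the rise of Aqp4 over all astrocytes thus stood beside larger shares of the Myoc and Thbs4 clusters.

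**Figure D4:**
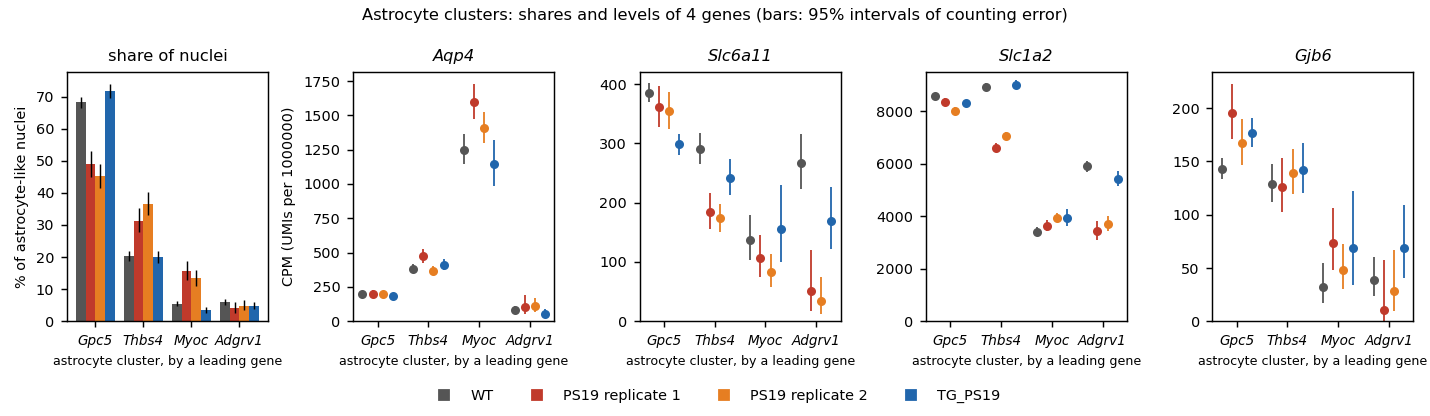
Share of astrocyte-like nuclei in each of the 4 clusters (left, bars from 0, exact 95% binomial intervals) and CPM of 4 genes in each cluster and library (points, exact 95% Poisson intervals). Aqp4 is between 187 and 199 in the Gpc5 cluster and at 1144 or higher in the Myoc cluster of all 4 libraries, while the Myoc cluster is largest in the PS19 libraries.

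Markers of other classes differed between the astrocyte sums. In astrocytes the summed oligodendrocyte markers (12 of 12 with a UMI) were at 653, 533, 363 and 562 CPM in WT, PS19 replicates 1 and 2 and TG_PS19, or 1.43% to 2.47% of their level in oligodendrocytes. The microglial markers (12 of 12) were at 259.9, 209.6, 172.3 and 204.5, or 1.33% to 1.58%. The fibroblast markers (6 to 9 of 9 with a UMI) were at 236, 124, 134 and 224, with Slc47a1 at 0 in both PS19 libraries, and were thus lower in PS19 than in WT and TG_PS19. The markers of CA1 pyramidal neurons (7 of 7) were at 127, 207, 182 and 112, or 4.36% to 9.05% of their level there. Those of dentate granule neurons (7 or 8 of 8) were at 1983, 2173, 2412 and 2121, or 49.1% to 60.4%. Both lists were highest in the PS19 libraries, as was that of CA3 pyramidal neurons (268, 288, 276 and 246). The lists of other excitatory neurons (2561, 2200, 2323 and 2798), inhibitory neurons (440, 351, 314 and 409) and Cajal-Retzius neurons (116, 89.8, 77.3 and 117) were lowest there. The astrocyte list itself was at 14582, 11039, 11899 and 14801, lowest in both PS19 libraries, as were Slc1a2 and Slc6a11. The part of these sums in the results was not tested.

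Outside astrocytes, members were called in several classes. In oligodendrocytes and microglia the sum of the astrocyte markers moved with most of these calls, while for some calls it did not, as given below. Over the 10 other classes, 72 pairs of gene and class were tested. For PS19 against WT 20 were called, 4 higher and 16 lower, beside 2.89% of all such pairs. In the comparison of TG_PS19 with PS19, 17 were called, 16 higher and 1 lower, beside 4.74%, and for TG_PS19 against WT 7, 1 higher and 6 lower, beside 2.40%. Among the 16 was Aqp4 in oligodendrocyte precursors (1.36, adjusted p = 0.000389, edgeR), opposite in sign to its change in astrocytes. It was the only 1 of 8 members called in that class and comparison. The astrocyte marker sum in these precursors was 33.0% to 38.9% of its astrocyte level.

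Oligodendrocytes held 8 of these 20 calls and 8 of these 17, each time 8 of the 9 members but not the same 8. The background there was 6.86% of genes for PS19 against WT and 9.11% for TG_PS19 against PS19. Slc1a2 stood there at 173 CPM in WT, 49.5 and 34.2 in PS19 and 106 in TG_PS19, a log2 change of -2.02 for PS19 against WT and 1.42 for TG_PS19 against PS19. Gja1 (-2.10 and 1.87), Slc6a11 (-2.22 and 1.37), Slc4a4 (-1.99 and 1.11) and Aqp4 (-1.27 and 0.91) took the same course. Kcnj10 was not called for PS19 against WT (0.04, adjusted p = 0.920, edgeR) but was for TG_PS19 against PS19 (0.37, adjusted p = 0.0437, edgeR). Gjb6 was called for PS19 against WT (-1.65, adjusted p = 0.000145, edgeR) but not for TG_PS19 against PS19 (1.02, adjusted p = 0.0793, edgeR). The sum of the 12 astrocyte markers in oligodendrocytes was at 229, 61.6, 50.1 and 137 CPM in the same order of libraries, with 12 of 12 markers detected in each. That sum was 1.57%, 0.558%, 0.421% and 0.927% of its level in astrocytes. Astrocytes held 20.6%, 13.002%, 13.6% and 15.8% of the UMIs of all kept nuclei. The part of these marker levels in the changes was not tested.

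Glul in oligodendrocytes did not follow that course. It stood at 229 CPM in WT, 359 and 312 in PS19 and 194.5 in TG_PS19, so that both PS19 libraries were the highest. The log2 change was 0.59 for PS19 against WT (adjusted p = 0.000135, edgeR) and -0.73 for TG_PS19 against PS19 (adjusted p = 1.19e-06, edgeR). Glul levels in oligodendrocytes were 31.7% to 52.8% of the astrocyte level, above the share of the astrocyte markers. Fibroblast-like nuclei also showed higher Glul in PS19 than in WT (0.59, adjusted p = 0.0126, edgeR). The astrocyte marker sum in them was lower in PS19 (333 and 292 CPM) than in WT (671).

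In microglia Slc1a2 stood at 210.2, 72.8, 33.7 and 162.5 CPM, and Slc1a3 at 323, 387, 396 and 386. The first fell in PS19 (-2.04, adjusted p = 3.32e-17, edgeR) with the astrocyte markers, whose sum was 342, 76.1, 64.9 and 215. Of the 12 markers, 12, 9, 7 and 9 were detected in the 4 libraries, with Sox9 at 0 in all but WT. Of the 7 members tested in microglia, 3 were called for PS19 against WT, all lower (Slc1a2, Slc4a4 and Gja1), beside 9.56% of genes. A further 3 calls were made for TG_PS19 against PS19, all higher (Slc1a2, Gja1 and Aqp4), beside 9.86%. In CA1 pyramidal neurons, Slc4a4 was higher than in WT both in PS19 (0.72, adjusted p = 0.0141, edgeR) and in TG_PS19 (0.80, adjusted p = 0.00457, edgeR), at 34.3, 42.4, 75.5 and 58.6 CPM. The astrocyte marker sum in these neurons was highest in WT, at 726, 706, 627 and 639 CPM in the same order of libraries.

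**Figure D5:**
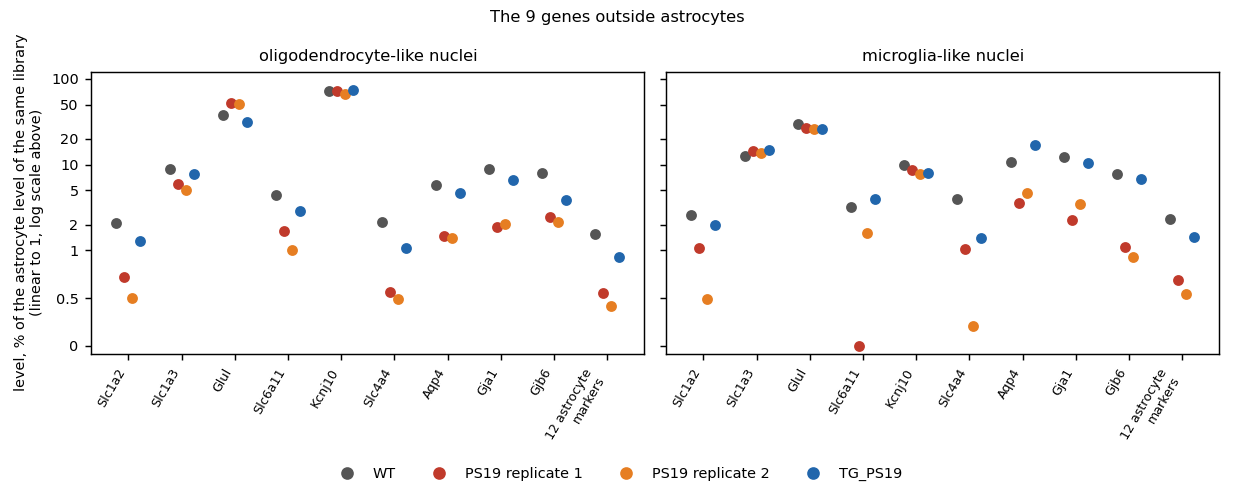
Level of each gene, and of the sum of 12 astrocyte markers, in oligodendrocyte-like (left) and microglia-like nuclei (right), as a percentage of the astrocyte level of the same library (vertical axis linear to 1 and logarithmic above). In oligodendrocytes 8 of the 9 genes and the marker sum lie lowest in both PS19 libraries, and Glul is highest in PS19. Of the 8, Kcnj10 is lowest there only narrowly, at 72.4 in WT, 71.5 and 65.9 in PS19 and 73.7 in TG_PS19.

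By pattern over the 11 tested classes and 4 libraries (44 points), the genes most like the mean log2 level of the 9 were Sdc4 (Pearson r = 0.956), Alms1-ps2 (0.936), Prdx6 (0.928), Gm29571 (0.927) and Aass (0.922). The points share libraries and depth, and the order of genes is a description.

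Start sites for 8 of the 9 genes were in the RefSeq promoter table (build GRCm38.p6). The upstream 250 bases are shown for Slc6a11, Gjb6 and Kcnj10, the 3 genes that were lowest in Gfap-detected astrocytes, each read 5′ to 3′ on the gene's own strand and ending at the start site. In GENCODE release M21 (GRCm38) the genes span chr6:114131241-114249952, chr14:57123303-57133611 and chr1:172341210-172374085. Capitals mark GC boxes, GGGCGG or its reverse complement.
Slc6a11, chr6:114130991-114131240, plus strand: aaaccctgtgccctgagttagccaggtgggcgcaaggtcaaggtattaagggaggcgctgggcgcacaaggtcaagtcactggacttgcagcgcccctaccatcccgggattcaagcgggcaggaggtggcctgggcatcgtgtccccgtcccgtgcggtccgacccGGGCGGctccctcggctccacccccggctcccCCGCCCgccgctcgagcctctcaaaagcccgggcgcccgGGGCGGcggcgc
Gjb6, chr14:57133612-57133861, minus strand: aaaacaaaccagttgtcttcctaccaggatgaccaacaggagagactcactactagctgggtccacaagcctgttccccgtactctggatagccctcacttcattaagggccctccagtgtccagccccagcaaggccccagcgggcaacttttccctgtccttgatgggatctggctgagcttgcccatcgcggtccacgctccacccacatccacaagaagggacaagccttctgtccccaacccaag
Kcnj10, chr1:172340960-172341209, plus strand: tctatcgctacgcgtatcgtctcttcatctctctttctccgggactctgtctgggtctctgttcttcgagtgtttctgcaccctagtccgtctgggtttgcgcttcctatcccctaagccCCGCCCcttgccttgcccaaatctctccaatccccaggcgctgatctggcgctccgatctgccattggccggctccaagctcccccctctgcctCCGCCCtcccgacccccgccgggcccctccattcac

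The 3 windows differ in composition. That of Slc6a11 is 71.2% G and C and holds 3 GC boxes, that of Kcnj10 62.0% with 2, and that of Gjb6 56.8% with 0, beside a median of 52.4% over 32851 windows of the same length, of which 32.7% hold a GC box on either strand. A search for the STAT motif TTCNNNGAA, which 7.02% of windows hold, found it in the window of Slc1a3 and in 0 of these 3 windows. Neither the SOX motif ACAATG (10.7% of windows) nor TATAAA (12.4%) was found in these 3 windows. In the same annotation, antisense or opposite-strand genes overlap Slc1a2, Glul, Slc6a11 and Aqp4, and whether counting used strand is not given in the sources used here. A motif match is a description of letters, and no match says only that they are not in this window.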

How the data were processed

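The deposited matrices hold raw UMI counts per gene and nucleus, which the authors made with Cell Ranger 7.1.0 on build GRCm38, per the submitters' processing notes. The annotation, intron counting and use of strand are not given in the sources used here. Of 55403 features, 54349 identifiers were in GENCODE release M21. The 9 genes and all lists were chosen with earlier results of these data known.

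Nuclei with at least 500 UMIs, 300 genes and at most 5% mitochondrial UMIs were kept. Doublets were scored by the Scrublet method, and the top 0.8% per 1000 nuclei was removed (3.71% to 10.2% of nuclei). Clusters came from 2000 variable genes without mitochondrial, sex-linked and transgene-related genes, the 9 genes and Gfap, 30 principal components, 15 neighbours and Leiden resolution 1.0 (leidenalg 0.10.2), without integration of libraries. Of 35 clusters, those in which at least 4 markers of one of 18 lists were raised, or 3 that made up 50% of a short list, were named. Exceptions were clusters whose 10 leading genes held more markers of another list, and shallow ones with no own marker among those genes. A name means that a cluster resembled the class.

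Counts were summed per library and class and fitted with edgeR 4.0.16 (R 4.3.3): low-count filter, TMM scaling and quasi-likelihood F-tests, two-sided, adjusted by Benjamini-Hochberg over all genes of a fit. In the genotype fits all 4 libraries entered, which left 1 residual degree of freedom, so lone libraries were assumed to vary like the PS19 pair. The Gfap split used the detected and undetected sums of each library, with the library as a block. In astrocytes that pair differed by more than sampling noise (chi-square per degree of freedom 2.17 over 13998 genes). The scripts were tested on simulated data. Named genes were the 9, Gfap, up to 10 of the wider list with the largest called changes per comparison, with the rest of the called ones also named (some genes of that list are counted but their values are not reported here), and the 5 genes most like the 9 by pattern (log2 of CPM plus 10). The floor for a count of 0 was 3 counts, and intervals cover counting error only. Alternatives were other scalings, DESeq2 1.42.0, filters, clusterings, thinning to 1000 UMIs, nuclei by sex-linked UMIs, and leaving out clusters or libraries. The largest-cluster fit and an adjusted count of residual degrees of freedom were added after seeing the data.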

Additional observations from a re-analysis of the deposited data

Results flagged for a closer look

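For 3 genes the genotype change differed between Gfap-detected and Gfap-undetected astrocytes, by the interaction test of edgeR described above. For PS19 against WT, the log2 change in detected nuclei minus that in undetected nuclei was -0.378 for Slc1a2 (SE 0.088) and 0.512 for Aqp4 (SE 0.132). For TG_PS19 against PS19 it was 0.441 for Slc1a2 (SE 0.089), 0.763 for Slc6a11 (SE 0.154) and -0.732 for Aqp4 (SE 0.142). Each rests on 1 WT, 2 PS19 and 1 TG_PS19 library, and both comparisons use the PS19 pair. Detection of Gfap rose with depth and was more frequent in PS19. Detected nuclei also held Gfap at 1039 and 906 CPM in PS19, against 518 in WT and 442 in TG_PS19. The part of depth or of Gfap level in these differences was not tested. After thinning each nucleus to 1000 UMIs, 0 of these passed: the difference of Slc6a11 was then 0.91, while those of Slc1a2 (-0.15 and 0.24) and Aqp4 (0.21 and -0.42) were smaller than without thinning.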

How the results depend on the processing

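Of the counts and medians that answer a comparison, 163 values under alternatives stayed near the reported one and 59 moved. No paired analysis between genotypes was possible because only the PS19 group had replicate numbers. The Gfap split was paired within libraries. Leaving out a PS19 library left no residual degrees of freedom in the astrocyte fits, which then gave values without a test. Over those, the median change of the 9 genes for TG_PS19 against PS19 ran from 0.22 to 0.39, and in the Gfap split, which kept its test, the median ran from -0.31 to -0.21. Over the same fits, Glul in PS19 against WT ran from -0.014 to 0.13 and Gja1 from -0.13 to 0.19. Arms with 1 library set the depth limit here: WT and TG_PS19 have no spread of their own, and Kcnj10 and Gjb6 have the fewest UMIs of the 9 in each library.

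For PS19 against WT, members called went from 2 to 1 with DESeq2 and thinning (Aqp4) and without the Myoc cluster (Slc6a11), to 3 without the low-count filter (Slc1a2 added), and to 0 in the largest cluster alone. The wider list went from 9 to 2 with DESeq2, 3 with thinning and 1 in the largest cluster. All genes called went from 985 to 110 with DESeq2, 278 with thinning and 142 in the largest cluster, where the median of the 9 was 0.18. For TG_PS19 against PS19, members called went from 3 to 1 with library totals, DESeq2 and thinning (Aqp4) and without the Myoc cluster (Slc1a2), to 0 in the largest cluster, and to 5 with a robust prior, with the members among the variable genes and with Xist-called nuclei. With adjusted residual degrees of freedom, 3 members were called higher (Kcnj10, Slc6a11 and Gjb6) and 1 lower (Aqp4). The wider list went from 11 to 4 with DESeq2, 3 with thinning, 7 without the Myoc cluster, 7 with Y-called nuclei and 4 in the largest cluster. All genes called went from 1542 to 241 with DESeq2, 484 with thinning and 360 in the largest cluster. The median of the 9 was 0.051 with library totals and 0.032 in the largest cluster.

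For TG_PS19 against WT, members called went from 0 to 1 with the members among the variable genes and 2 with Xist-called nuclei. The wider list went from 1 to 3 with library totals, 2 with a robust prior, without the Myoc cluster, with Y-called nuclei, with Xist-called nuclei and with adjusted degrees of freedom, and 0 with DESeq2 and in the largest cluster. All genes called went from 392 to 16 with DESeq2, 156 with thinning, 228 with Y-called nuclei and 223 in the largest cluster. The median of the 9 was 0.024 with library totals and 0.25 with Xist-called nuclei. In the Gfap split the median went from -0.27 to -0.21 with library totals, -0.17 without the Myoc cluster and -0.41 for at least 2 Gfap UMIs. Members past the interaction went from 2 to 0 for PS19 against WT with DESeq2, members among the variable genes, at least 2 Gfap UMIs and thinning, and to 1 without the Myoc cluster. For TG_PS19 against PS19 they went from 3 to 1 with DESeq2, members among the variable genes and at least 2 Gfap UMIs, and to 0 with thinning. The cause was not tested for any of these.

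Of the values of single genes, 24 changed sign, none of them called under that alternative. For PS19 against WT these were Glul (-0.014) and Gja1 (-0.13) without PS19 replicate 1, Gja1 without the low-count filter (-0.0018), and Slc4a4 with thinning (0.013) and in the largest cluster (0.068). For TG_PS19 against PS19, Slc1a3 came to -0.091 with library totals, -0.014 without the Myoc cluster, -0.038 with Y-called nuclei and -0.0104 in the largest cluster. Glul came to -0.071, -0.29 and -0.062 with library totals, Y-called nuclei and the largest cluster. In the largest cluster Aqp4 was at 0.032, Gja1 at -0.034 and Slc6a11 at -0.16. For TG_PS19 against WT, Slc1a2 was at -0.0103 with library totals and Glul at -0.23 with Y-called nuclei. Aqp4 was at -0.14 with library totals, -0.018 without the filter, -0.032 with doublets kept, -0.062 with thinning and -0.13 with Xist-called nuclei, and Gfap was at 0.026 without the Myoc cluster. In the Gfap split, Slc1a3 was at 0.064 without the Myoc cluster.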

Other observations

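Other genes of the same functions also differed between Gfap-detected and Gfap-undetected astrocytes. Of the wider list, 14 of the 37 tested passed by edgeR, 3 higher and 11 lower, beside 7.87% of all genes, with a median log2 difference of -0.07. Slc38a1, a glutamine transporter, was higher by 2.03 and Slc16a1, a lactate transporter, by 0.86. Grm5 was higher by 0.56. Lower were Slc7a10 (-0.73), the inward rectifier subunit gene Kcnj16 (-0.61), the glycine transporter gene Slc6a9 (-0.59), Grm3 (-0.52), Slc25a18 (-0.41) and Maob (-0.34).

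Values from clusters in no comparison include 285 unnamed nuclei led by Sntb1 and Fabp7, of which 284 were from WT. Slc4a4 stood there at 3213 CPM in WT, above the 1851 of WT astrocytes, while Aqp4 was at 24.7. Ependymal-like nuclei (26, 12 and 16 in PS19 replicates 1 and 2 and TG_PS19) held Aqp4 at 178, 230 and 143 CPM, and Gjb6 had 0 UMIs in them.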
